A study of Mus musculus with 6 samples.

Results

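The mouse MHC class I heavy chains are the transmembrane chains that pair with beta-2 microglobulin and hold a ligand, usually a peptide, at the cell surface. Their genes lie in the H2 complex on chromosome 17 and are described here in HL-1, a cultured line of mouse atrial muscle cell origin. The genes were chosen by symbol: H2-K1 and H2-D1 as classical heavy chains, and H2-Q4, H2-Q6, H2-Q7, H2-T10, H2-T22, H2-T23, H2-T24 and H2-M3 as non-classical ones. All 10 were found among the 49492 genes of the count table, and all 10 passed the filter on low counts that left 16473 genes for testing. Total RNA was sequenced from 3 libraries of HL-1 cells that overexpressed the human long noncoding RNA ZNF593-AS under palmitic acid, and from 3 libraries of vector-transfected HL-1 cells under palmitic acid. Palmitic acid, a saturated fatty acid used to load cultured cells with lipid, was thus common to both groups, and no library without it was used. Titles, which set the groups here, name ZNF593-AS in all 3 libraries, whereas under treatment replicate 2 carries the name ZNF594-AS and replicate 3 the name ZNF595-AS. Separate cultures are not stated in the labels, so the p-values cover only the spread among these libraries of 1 cell line, and that spread may be technical. The level of the human RNA itself was not analysed here.

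Classical class I molecules carry peptides of cytosolic proteins to CD8 T cells, and they are made by nearly all nucleated cells, at a low level in resting heart muscle. Non-classical molecules are less variable between mouse strains and have narrower tasks, such as display of leader peptides to natural killer cell receptors, display of formylated peptides, or recognition by gamma delta T cells. Transcription of class I genes is driven from a short upstream region that holds a kappa B site bound by NF-kB, a site for interferon regulatory factors (IRF) and an S-X-Y module at which RFX, CREB and NF-Y factors recruit the coactivator NLRC5.

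Total counts were 61042914 to 84547615 in the ZNF593-AS libraries and 51470457 to 73529088 in the vector libraries. Values below are CPM, counts per 1000000 of the library total scaled by the TMM method, and RPKM, which is CPM per kilobase of exon and is used wherever genes are set beside each other. No library stood apart: the chi-square per gene between 2 libraries was 9.97 to 11.8 within the ZNF593-AS group, 10.2 to 12.4 within the vector group and 53.3 to 71.3 between groups. Markers of T and NK cells and of vessel cells were near 0, and those of macrophages were mixed. The 6 T and NK cell markers summed to 0.0777 to 0.275 CPM in ZNF593-AS libraries and 0.186 to 0.221 CPM in vector libraries, with Ncr1 and Klrb1c at 0 throughout. The 6 endothelial markers summed to 0.484 to 0.687 CPM in ZNF593-AS libraries and 0.470 to 0.670 CPM in vector libraries, with Emcn at 0. Of the 8 macrophage markers, Adgre1, Itgam, Fcgr1, Ptprc and Lyz2 were under 1 CPM on average, and none was at 0 in all libraries. The 8 summed to 13.0 to 13.8 CPM in ZNF593-AS libraries and 10.4 to 12.9 CPM in vector libraries. Most of that sum came from Cd68, Cd14 and Csf1r. Of the 5 tested, Cd68, a lysosomal membrane protein, was higher, at 6.28 ± 0.443 CPM with ZNF593-AS and 4.55 ± 0.780 CPM with vector (SD, n = 3 each, log2 fold change 0.46, edgeR adjusted p = 0.0316), a call that was lost in 5 of the 17 alternatives, 4 of which left out 1 library each (vector replicate 1, vector replicate 2, ZNF593-AS replicate 2, ZNF593-AS replicate 3) and 1 of which kept ZNF593-AS replicate 1 alone. The 6 fibroblast markers summed to 246 to 288 CPM in ZNF593-AS libraries and 313 to 322 CPM in vector libraries, but went both ways. The collagen genes Col1a1 (log2 fold change -0.45) and Col1a2 (-0.25) were lower and the receptor gene Pdgfra (0.39) was higher. The call of Col1a1 held in all 17 alternatives, whereas those of Col1a2 and Pdgfra were each lost in 7, among them the omission of any 1 vector library. The part of the macrophage and fibroblast markers in the heavy chain result was not tested. Of the 8 atrial cardiomyocyte markers, 6 were under 1 CPM, among them Nppa and Sln with no count, so the atrial identity in the label was not borne out by its defining genes, while Tnnt2, a cardiac troponin, was at 97.4 ± 8.62 CPM in ZNF593-AS libraries and 89.2 ± 5.99 CPM in vector libraries (SD, n = 3 each).

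Upstream sequences are shown because the 10 genes moved together, and the IRF site is shown gene by gene. Promoters, taken from RefSeq on GRCm38.p6 as 250 bases before to 50 bases after an annotated start, were matched by symbol for 8 of the 10 members, all but H2-T10 and H2-T24. H2-K1 had 2 overlapping entries, of which the second is used. Searched on both strands, the motif AANNGAAA, a pair of IRF half-sites that reads TTTCNNTT on the other strand, was found in 8 of 8 promoters, and in 23.9% of 32851 promoters of the same length. The full interferon-stimulated response element, searched as GAAA, any 2 bases and GAAA, and always holding AANNGAAA as well, was found in 2 of 8, H2-T22 and H2-T23, and in 3.44% of all. The windows of 30 bases below show each match, 5′ to 3′ on the strand of the gene, with the match to AANNGAAA in capitals, or to the longer element where it is present; the position of the first capital is counted from the annotated start.
H2-K1, at -104: catctccacagTTTCACTTctgcacctaac
H2-D1, at -150: catctcctcagTTTCACTTctgcacctaac
H2-Q4, at -153: catctccccagTTTCACTTctgctcctaac
H2-Q6, at -152: catctccccagTTTCACTTctgctcctaac
H2-Q7, at -113: catctccccagTTTCACTTctgctcctaac
H2-M3, at -101: ttcctctgaggTTTCACTTctctgtaactc
H2-T22, at -191: aattggcttagTTTCACTTTCgaatcccca
H2-T23, first match, at -124: gatcctactgcTTTCTCTTTCataaagaca
H2-T23, second match, at -81: ctcaattctcaTTTCTGTTggacgcctagt

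The K, D and Q genes carried nearly the same window, with ctg after the motif, whereas in H2-T22 the same 8 bases were followed by TC. The kappa B letters GGGATTCCC were found in 4 of 8 promoters, those of H2-K1, H2-D1, H2-Q6 and H2-Q7, and in 0.353% of all. The X2 letters TGACGC were found in 4 of 8, those of H2-K1, H2-D1, H2-Q4 and H2-M3, and in 7.4% of all; in H2-Q4 the match lay after the start. CCAAT, the letters bound by NF-Y, was found in 8 of 8 and in 37.4% of all. The gamma-activated site TTCNNNGAA was found only in H2-M3 among the 8, and in 8.3% of all. Among the 13376 promoters of tested genes alone, the shares were 18.4% for AANNGAAA, 3.17% for the longer element, 0.411% for the kappa B letters, 11.9% for the X2 letters, 38.2% for CCAAT and 6.98% for the gamma-activated site. Class I genes are related by duplication, so these counts are not independent, and a match is a run of letters, not a bound site. Whole promoters are shown for 1 classical gene, the 2 T genes with the longer element and H2-M3, with all matches to the 6 motifs in capitals.
H2-K1, GRCm38.p6 chr17:34000284-34000583, minus strand: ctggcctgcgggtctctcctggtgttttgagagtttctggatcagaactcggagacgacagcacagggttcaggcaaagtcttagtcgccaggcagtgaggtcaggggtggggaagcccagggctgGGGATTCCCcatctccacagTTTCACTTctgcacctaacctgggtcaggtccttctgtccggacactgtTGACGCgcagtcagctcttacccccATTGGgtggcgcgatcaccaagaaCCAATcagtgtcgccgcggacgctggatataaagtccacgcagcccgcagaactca
H2-M3, GRCm38.p6 chr17:37269984-37270283, plus strand: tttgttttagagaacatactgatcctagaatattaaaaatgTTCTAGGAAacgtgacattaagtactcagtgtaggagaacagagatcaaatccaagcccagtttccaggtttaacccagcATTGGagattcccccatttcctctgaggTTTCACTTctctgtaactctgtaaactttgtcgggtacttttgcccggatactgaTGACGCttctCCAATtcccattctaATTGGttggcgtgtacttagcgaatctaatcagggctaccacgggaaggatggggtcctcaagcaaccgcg
H2-T22, GRCm38.p6 chr17:36042693-36042992, minus strand: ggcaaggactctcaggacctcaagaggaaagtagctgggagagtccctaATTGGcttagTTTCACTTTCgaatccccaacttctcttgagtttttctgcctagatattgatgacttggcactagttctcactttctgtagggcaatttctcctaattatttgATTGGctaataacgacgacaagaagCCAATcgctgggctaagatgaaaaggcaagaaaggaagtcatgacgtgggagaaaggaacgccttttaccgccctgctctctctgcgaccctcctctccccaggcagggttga
H2-T23, GRCm38.p6 chr17:36032652-36032951, minus strand: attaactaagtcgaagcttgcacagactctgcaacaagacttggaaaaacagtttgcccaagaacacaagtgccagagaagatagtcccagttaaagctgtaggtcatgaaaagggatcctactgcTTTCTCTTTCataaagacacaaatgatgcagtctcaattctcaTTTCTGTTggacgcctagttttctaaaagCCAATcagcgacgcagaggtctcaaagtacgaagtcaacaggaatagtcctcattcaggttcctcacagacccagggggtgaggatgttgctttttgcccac

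The comparison of ZNF593-AS with vector asks how the overexpressed RNA changes gene expression in lipid-loaded cells. All 10 heavy chain genes were lower in ZNF593-AS libraries in edgeR's quasi-likelihood test with Benjamini-Hochberg adjustment over all genes tested. Among all 16473 genes, 1015 were called lower, which is 6.16%, and 368 higher, which is 2.23%, or 8.40% in either direction; with library totals in place of TMM scaling 811 were lower and 1284 higher, and the 10 heavy chains still fell. The count of higher genes varied with the library left out. It was 209, 234 and 283 without vector replicates 1, 2 and 3, in that order. Without ZNF593-AS replicates 1, 2 and 3 it was 394, 138 and 170, in that order. The count of lower genes was 827 to 962 when any 1 library was left out. Such fits compare fewer libraries, so a smaller count does not by itself show reliance on 1 library. The falls ran from 1.75-fold for H2-Q7 to 12.4-fold for H2-T24, and 9 of the 10 were 2-fold or more, a size of fall that 2.59% of all tested genes were called with. The median log2 fold change was -1.37 over the 10 genes, against 0.01 over all genes tested. The libraries of both groups did not overlap for any of the 10, as for 13.4% of all genes in that direction. In bulk RNA, less RNA per cell and fewer expressing cells cannot be told apart.

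**Figure D1:**
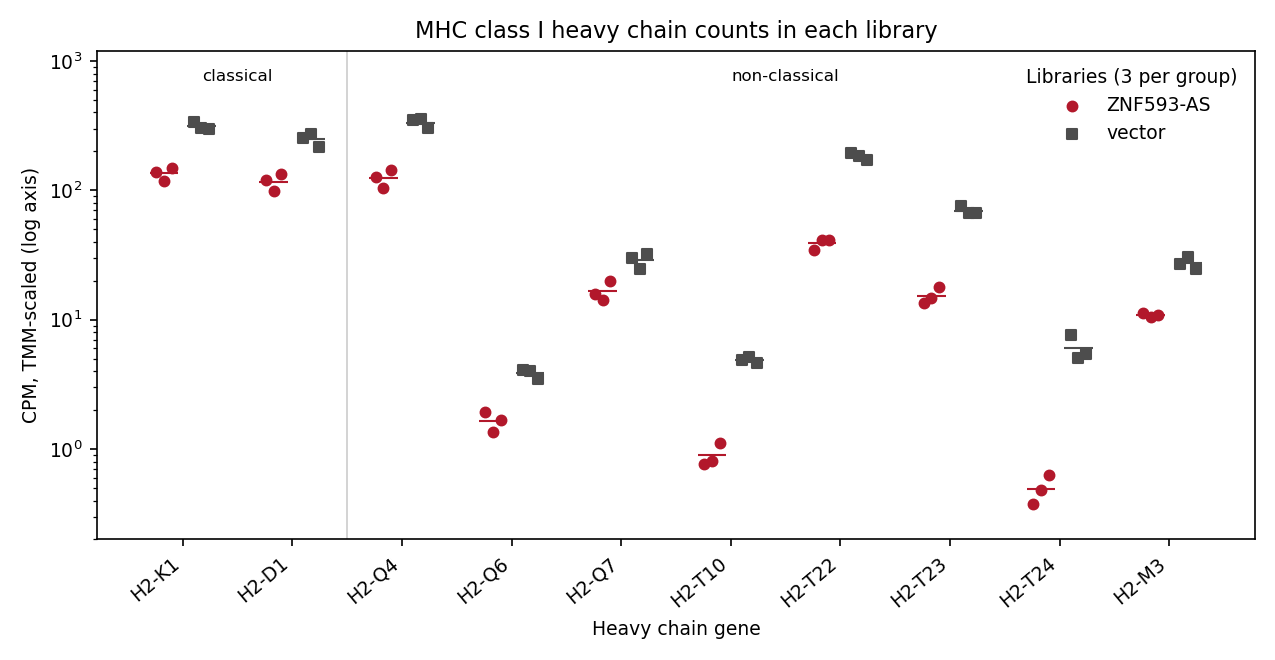
CPM of each heavy chain gene (log axis) in the 3 ZNF593-AS libraries (circles) and the 3 vector libraries (squares); lines are group means. Every gene's ZNF593-AS libraries lie below its vector libraries, with the widest gap at H2-T24 and the narrowest at H2-Q7.

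H2-K1 (GRCm38 chromosome 17, 33996017 to 34000333, minus strand), the K molecule that presents peptides to CD8 T cells, was at 140, 118 and 148 CPM in ZNF593-AS replicates 1 to 3 and at 337, 304 and 298 CPM in vector replicates 1 to 3. The highest ZNF593-AS library lay well below the lowest vector library. The log2 fold change was -1.21 ± 0.08 (SE), or 2.31-fold lower (edgeR adjusted p = 1.78e-08). H2-D1 (chromosome 17, 35262730 to 35267499, plus strand), the other classical chain and the source of a leader peptide that Qa-1 molecules display, was at 119, 98.4 and 133 CPM with ZNF593-AS and at 253, 275 and 217 CPM with vector. It fell 2.12-fold, with a log2 fold change of -1.09 ± 0.11 (edgeR adjusted p = 1.96e-05). Within each library the ratio of H2-D1 to H2-K1 per length, as log2, was -0.20 ± 0.05 with ZNF593-AS and -0.32 ± 0.17 with vector (SD, n = 3 each), and these ranges overlapped (exact permutation test, 2-sided, p = 0.4).

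The Q genes lie next to H2-D1 and include the genes of the Qa-2 antigen, which has a lipid-anchored form. H2-Q4 (chromosome 17, 35379617 to 35385290, plus strand) was as abundant as the classical chains, at 127, 105 and 143 CPM with ZNF593-AS and at 347, 353 and 301 CPM with vector. It fell 2.68-fold (log2 fold change -1.42 ± 0.10, edgeR adjusted p = 1.46e-07). H2-Q7 (35439155 to 35443773), a Qa-2 gene, had the smallest fall of the 10. It was at 15.9, 14.1 and 19.9 CPM with ZNF593-AS and at 30.2, 24.8 and 32.3 CPM with vector (log2 fold change -0.81 ± 0.12, edgeR adjusted p = 0.000845). Its groups came closest to each other but did not overlap. H2-Q6 (35424850 to 35430055), a second Qa-2 gene, was low, at 1.93, 1.35 and 1.68 CPM with ZNF593-AS and at 4.06, 4.01 and 3.51 CPM with vector (-1.21 ± 0.16, edgeR adjusted p = 3.19e-05).

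The T genes fell most. H2-T22 (chromosome 17, 36037128 to 36042747, minus strand), whose product is recognised by gamma delta T cells without a bound peptide, was at 34.6, 41.0 and 41.4 CPM with ZNF593-AS and at 193, 183 and 173 CPM with vector. That is a 4.69-fold fall (log2 fold change -2.23 ± 0.08, edgeR adjusted p = 2.25e-12), and by p-value H2-T22 ranked 23 among all genes tested. H2-T23 (36029773 to 36032855, minus strand) encodes Qa-1, which shows class I leader peptides to the CD94/NKG2A receptor of natural killer cells. It was at 13.4, 14.6 and 17.8 CPM with ZNF593-AS and at 75.2, 67.1 and 66.4 CPM with vector, a 4.57-fold fall (-2.19 ± 0.09, edgeR adjusted p = 9.23e-11). H2-T10 (36115876 to 36121465, minus strand), a close relative of H2-T22 and also a gamma delta T cell ligand, had 67, 62 and 69 counts with ZNF593-AS and 263, 260 and 333 with vector. In CPM this was 0.766, 0.803 and 1.11 with ZNF593-AS and 4.89, 5.13 and 4.60 with vector (-2.46 ± 0.16, edgeR adjusted p = 7.21e-09). H2-T24 (36005695 to 36020560, minus strand) had 33, 37 and 39 counts with ZNF593-AS and 409, 257 and 394 with vector. Its CPM was 0.377, 0.479 and 0.630 with ZNF593-AS and 7.61, 5.07 and 5.45 with vector, the largest fall of the 10 at 12.4-fold (-3.63 ± 0.21, edgeR adjusted p = 1.58e-09). Every vector library of H2-T24 was above 5 CPM and every ZNF593-AS library was under 1 CPM.

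H2-M3 (chromosome 17, 37270220 to 37274484, plus strand), which presents peptides that begin with formylmethionine, lies at the far end of the complex. It was at 11.2, 10.6 and 10.9 CPM with ZNF593-AS and at 27.2, 30.4 and 24.7 CPM with vector (log2 fold change -1.33 ± 0.08, edgeR adjusted p = 4.37e-09). Its ZNF593-AS libraries lay closer together, with an SD of 0.302 CPM, than its vector libraries, with an SD of 2.89 CPM.

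The classical pair had a median log2 fold change of -1.15 and the 8 non-classical genes one of -1.81, a difference of 0.66 that is given as a description. The non-classical values were not of one kind, since they spanned -3.63 to -0.81 and enclosed both classical values. Sorted by place in the complex, a grouping made after the values were seen, the 4 T genes fell 4.57-fold to 12.4-fold. The 6 K, D, Q and M genes fell 1.75-fold to 2.68-fold, so these 2 sets of members did not overlap in value. Other genes in the stretch of the T genes mostly fell less. H2-T-ps, between H2-T22 and H2-T10, had a log2 fold change of -1.07. The predicted genes Gm6034, Gm11127, Gm7030, Gm10499, Gm8909 and Gm20478 had -1.57, -1.33, -1.04, -1.20, -1.44 and -1.53. Gm9574, at -2.99 ± 0.69 (SE), lay within the values of the T genes. The ratio to H2-K1 within a library, as log2 per length, put the falls of the members on a scale that library scaling cannot move. For H2-T22 it was -2.18 ± 0.25 with ZNF593-AS and -1.16 ± 0.04 with vector (SD, n = 3 each). For H2-T23 it was -3.30 ± 0.20 with ZNF593-AS and -2.32 ± 0.01 with vector, and for H2-T24 it was -7.86 ± 0.36 with ZNF593-AS and -5.46 ± 0.22 with vector. H2-T10 changed by -1.25 relative to H2-K1, H2-Q4 by -0.21 and H2-Q7 by 0.40. In each of these 6 genes the ratios of the 2 groups did not overlap, with an exact permutation p of 0.1, the smallest that 3 against 3 libraries can give, and 0.15 after adjustment over the 9 ratios. The ratios of H2-D1, H2-Q6 and H2-M3 overlapped between groups, with changes of 0.12, -0.02 and -0.11. These 9 tests cannot reach 0.05 in this design. For how many of all tested genes the ratio to H2-K1 does not overlap between groups was not computed. Because H2-K1 itself fell, a gene without change would also shift in this ratio. The 6 genes without overlap are therefore given as a description.

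**Figure D2:**
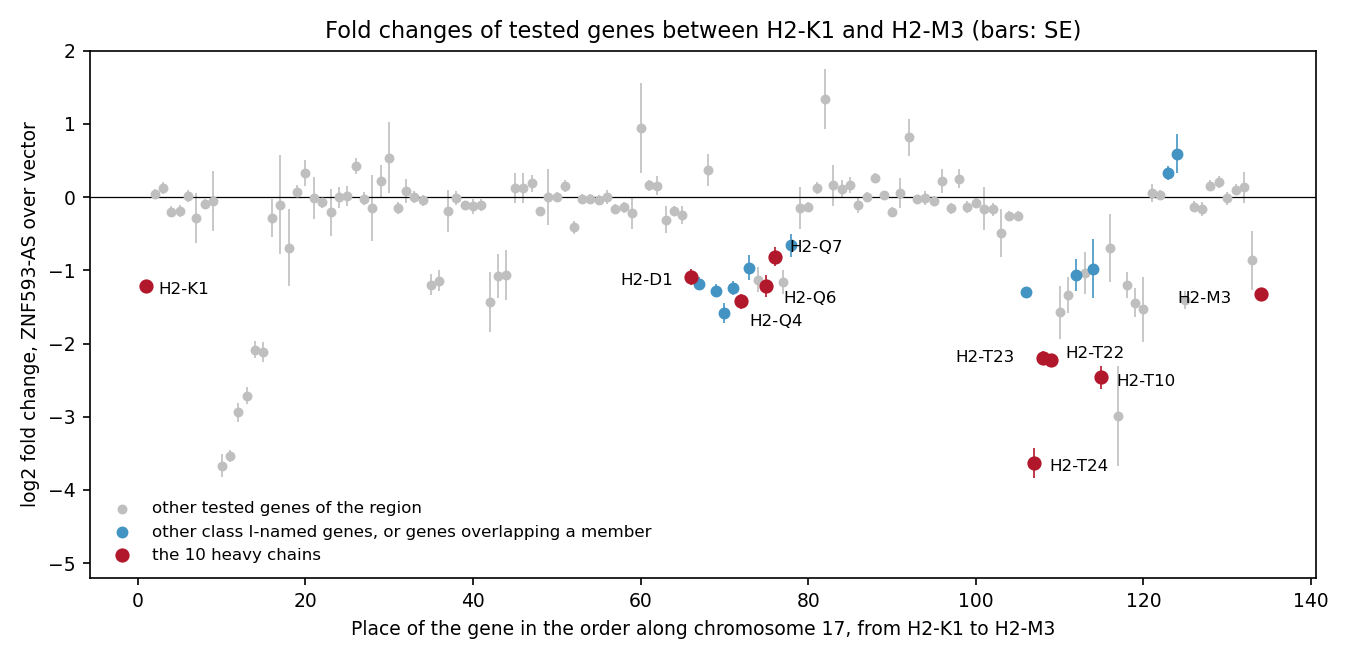
Log2 fold change (ZNF593-AS over vector, bars are SE) of the tested genes between H2-K1 and H2-M3, in their order along chromosome 17. The 4 T genes lie at -2.19 or below, the other 6 heavy chains between -1.42 and -0.81, and most grey points near 0; the grey points that start at -3.67 near the left are Psmb9, Tap1, Psmb8 and Tap2 with their overlapping genes.

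Most other genes of the region had no call. Between H2-K1 and H2-M3, 113 tested genes were neither class I by name nor overlapping a member, and 21 of them, 18.6%, were called lower and 2 higher, with a median log2 fold change of -0.10. Of the 113, 6 predicted genes share 50-base transcript stretches with heavy chains, namely Gm11127, Gm7030, Gm9574, Gm10499, Gm8909 and Gm20478, and all 6 were lower. Of the 107 that share none, 15 were lower, which is 14%, and 2 higher, with a median of -0.07. That share stands beside 6.16% over all genes tested, and the difference was not tested. Among the 15 were Psmb9, Tap1, Psmb8 and Tap2, described below. Other class I-named genes and genes overlapping a member numbered 11, of which 8 were lower and 1 was higher, with a median of -1.07.

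Per length, 3 genes made up most of the heavy chain RNA in both groups. In ZNF593-AS libraries the order by mean RPKM was H2-K1 at 51.9 ± 6.01, H2-Q4 at 48.0 ± 7.35 and H2-D1 at 45.3 ± 6.76 (SD, n = 3), whose library ranges overlapped from one to the next. Then came H2-T22 at 11.4 ± 1.11, H2-M3 at 7.58 ± 0.210, H2-T23 at 5.29 ± 0.778 and H2-Q7 at 3.90 ± 0.688, of which the last pair overlapped. H2-Q6 at 0.793 ± 0.141, H2-T10 at 0.262 ± 0.0559 and H2-T24 at 0.227 ± 0.0582 were lowest, and the last pair overlapped. In vector libraries H2-Q4 came first at 129 ± 10.9 RPKM and H2-K1 second at 120 ± 8.21, with overlapping ranges. They were followed by H2-D1 at 96.2 ± 11.4, H2-T22 at 53.5 ± 2.91, H2-T23 at 24.1 ± 1.69, H2-M3 at 19.1 ± 2.01, H2-Q7 at 6.82 ± 0.904, H2-T24 at 2.77 ± 0.627, H2-Q6 at 1.85 ± 0.144 and H2-T10 at 1.43 ± 0.0775, each apart from its neighbour in range. H2-T24 thus stood above H2-Q6 in vector libraries and below it in ZNF593-AS libraries, and H2-T23 above H2-M3 in vector libraries and below it in ZNF593-AS libraries.

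The classical chains, and also H2-Q6 and H2-Q7, took a larger share of the RNA of the 10 heavy chains in ZNF593-AS libraries. Of the summed RPKM of the 10 genes, H2-K1 and H2-D1 made up 56.7%, 54.6% and 55.5% in ZNF593-AS replicates 1 to 3, against 47.8%, 47.6% and 47.4% in vector replicates 1 to 3. The 4 T genes made up 8.62%, 11.5% and 9.67% with ZNF593-AS and 18.3%, 17.2% and 18.5% with vector. Neither of these shares overlapped between groups, and no test was run on them. The share of H2-Q4 was 27.4% ± 0.879 with ZNF593-AS and 28.3% ± 0.676 with vector (SD, n = 3 each), with overlapping ranges. That of H2-M3 overlapped as well. The share of H2-Q7 was 2.23% ± 0.141 with ZNF593-AS and 1.51% ± 0.285 with vector. The share of H2-Q6 was 0.454% ± 0.0627 with ZNF593-AS and 0.407% ± 0.00386 with vector. These last 2 shares did not overlap between groups. The sum itself was 175 ± 21.5 RPKM with ZNF593-AS and 454 ± 31.7 RPKM with vector.

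**Figure D3:**
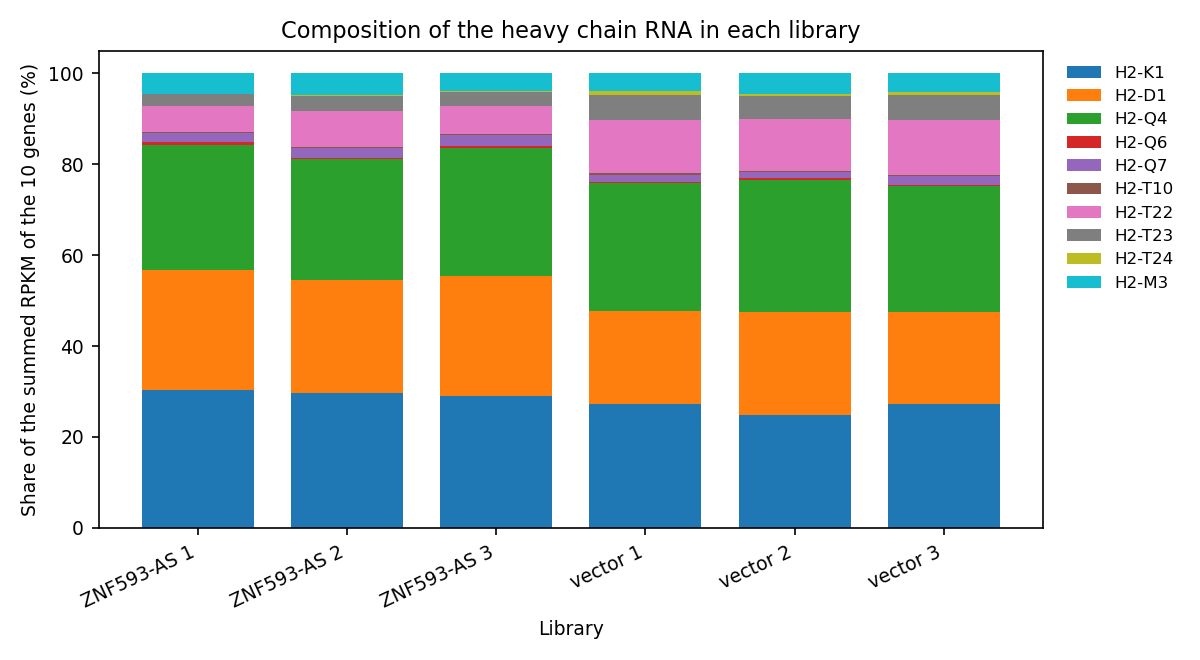
Share of the summed RPKM of the 10 heavy chain genes taken by each gene (%), in the 3 ZNF593-AS libraries and the 3 vector libraries. The H2-K1 and H2-D1 blocks together end near 55% in the ZNF593-AS bars and near 47% in the vector bars, and the H2-T22 and H2-T23 blocks are thinner in the ZNF593-AS bars.

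B2m, the light chain with which class I heavy chains pair, fell with them. It was at 148, 154 and 159 CPM with ZNF593-AS and at 433, 380 and 349 CPM with vector (log2 fold change -1.33 ± 0.08). Per length, B2m stood at 0.976, 1.17 and 0.949 times the summed heavy chains in ZNF593-AS replicates 1 to 3 and at 1.06, 0.942 and 0.970 times in vector replicates 1 to 3. These ratios overlapped between groups.

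Of 15 genes of peptide supply and loading, 12 were lower, 0 higher and 3 did not pass, with a median log2 fold change of -1.26. The peptide transporter genes Tap1 (-3.54 ± 0.08) and Tap2 (-2.08 ± 0.11), and Tapbp, which bridges the transporter to the heavy chain (-2.28 ± 0.12), had larger falls than H2-K1, though these differences were not tested. The immunoproteasome subunits, which replace the catalytic subunits of the standard proteasome, fell as well, with log2 fold changes of -3.67 ± 0.15 for Psmb9, -2.94 ± 0.13 for Psmb8 and -1.95 ± 0.11 for Psmb10. Calr, Canx and Pdia3, chaperones that fold class I chains along with many other glycoproteins, were the 3 that did not pass, with log2 fold changes of -0.09, -0.23 and -0.20. Tap1 shares exon bases with Psmb9, and Tap2, Tapbp and Psmb8 with predicted genes, all on the opposite strand. Tapbp also shares exon bases with Zbtb22 on the same strand.

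Of 14 regulators of class I transcription, 7 were lower and 0 higher; the other 7 had no call, and the median log2 fold change was -0.22. Nlrc5, the class I coactivator, which the loading list also holds, was at 6.27, 7.14 and 5.70 CPM with ZNF593-AS and at 13.8, 11.4 and 13.2 CPM with vector (log2 fold change -1.01 ± 0.10). Irf1 (-2.11 ± 0.07), Stat2 (-2.69 ± 0.13) and Irf9 (-1.50 ± 0.10), transcription factors of interferon signalling, fell too. Irf2 (-0.75 ± 0.06) and the NF-kB subunit gene Nfkb1 (-0.31 ± 0.06) had smaller falls, and Nfkb1 had no call with ZNF593-AS replicate 1 alone. Rfx5, a subunit of the X-box factor, had an edgeR adjusted p of 0.0332 (-0.26 ± 0.07), but adjusted p-values of 0.0678 to 0.185 when library totals were used or when vector replicate 1, vector replicate 3 or any 1 ZNF593-AS library was left out, and 0.27 with ZNF593-AS replicate 1 alone. Rfxap, Rfxank, Nfya, Nfyb, Nfyc, Creb1 and Rela did not pass. Irf1, Rfx5 and Nlrc5 overlap other genes in the table, each on the opposite strand.

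**Figure D4:**
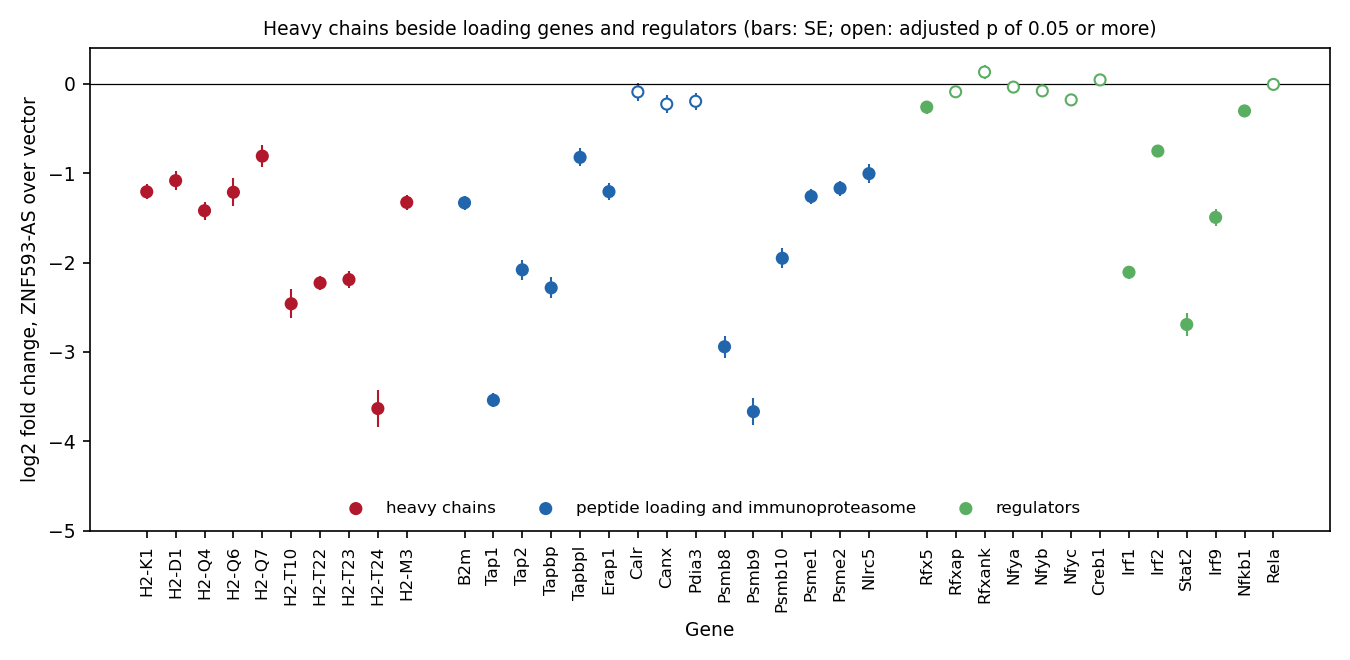
Log2 fold change (ZNF593-AS over vector, bars are SE) of the 10 heavy chains, 15 peptide loading and immunoproteasome genes and the other regulators of class I transcription described here; filled points have an edgeR adjusted p under 0.05. Calr, Canx, Pdia3 and 7 regulators are open points near 0, and Psmb9, H2-T24 and Tap1 lie lowest.

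Reads of the members can be hard to assign, because the genes share stretches of sequence. The strain haplotype of HL-1 is also not given in the sources used here, while GRCm38 is a C57BL/6J genome. The share of a gene's 50-base transcript stretches that also occur in transcripts of another gene, on either strand, was computed from GENCODE M21. It was 53.5% for H2-T22 and 50.4% for H2-T10, which hold 31.2% and 31.7% of their stretches in common with each other. H2-Q4 had 36.4%, H2-Q6 34.97%, H2-Q7 26.5%, H2-T23 14.5%, H2-D1 12.8% and H2-K1 9.63%. H2-T24, at 3.17%, and H2-M3, at 0.576%, were nearly unique, and they had the largest fall of the 10 and a fall close to those of the classical pair. The share found in another member was lower for H2-T22 (33.4%), H2-Q6 (24.5%), H2-Q4 (13.4%), H2-D1 (10.2%), H2-Q7 (8.38%), H2-K1 (7.98%) and H2-T23 (4.17%). Other partners included genes on the opposite strand, such as A930015D03Rik (26.5% of H2-T22) and Gm11131 (15.3% of H2-Q4), and unrelated genes, such as Rab33b (2.58% of H2-T23). With pairs of members summed, H2-T22 with H2-T10 had a log2 fold change of -2.23, H2-K1 with H2-D1 one of -1.15 and H2-Q7 with H2-Q6 one of -0.85. H2-K1 and H2-D1 share only 4.08% and 5.44% of their stretches with each other, and H2-Q7 and H2-Q6 share 6.31% and 13.9%.

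Exons of 3 members overlap genes on the opposite strand. H2-T22 shares 29.4% of its exon bases with A930015D03Rik, which fell by less (log2 fold change -1.29 ± 0.07), and H2-T10 shares 27.1% with BC023719, which had 8 to 20 counts per library. H2-Q4 shares 19.1% with Gm11131, whose counts were 9713, 7033 and 7611 with ZNF593-AS, against 14026, 13870 and 16741 with vector (Gm11131 log2 fold change -1.24 ± 0.10). The strand setting of the counting is not known, so values of these pairs are uncertain.

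**Figure D5:**
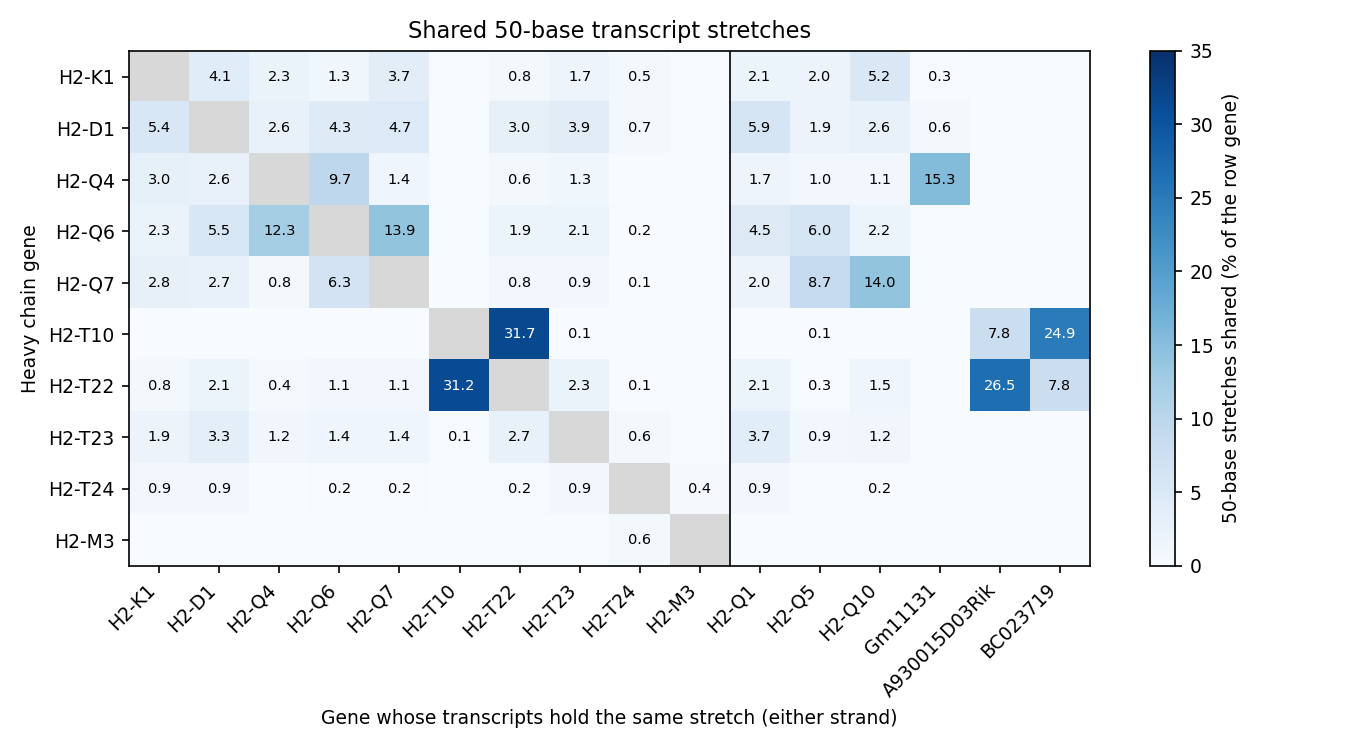
Percent of each heavy chain gene's 50-base transcript stretches (rows) also present, on either strand, in transcripts of the gene named at the foot of the column; blank cells are at or near 0 and grey cells are the gene itself. The darkest cells join H2-T10 with H2-T22 at 31.7% and 31.2%, and the H2-M3 row is nearly empty.

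By profile over the 6 libraries, the 5 genes most like the mean log2 CPM of the 10 heavy chains among 12938 others with at least 1 CPM were Taf7, Lgals3bp, Shisa5, Olfr56 and Ifi47, with Pearson correlations of 0.9988 to 0.9996. The 6 points share 2 groups and the same library scaling, so such values mostly reflect the difference between groups. Their falls were unlike in size, with log2 fold changes of -0.55 for Taf7, -2.04 for Lgals3bp, -1.12 for Shisa5, -4.71 for Olfr56 and -4.80 for Ifi47. Olfr56 and Ifi47 share exon bases on the same strand.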

How the data were processed

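Per the file headers, the authors' table gives each gene's exon length and its raw count in every library. The submitters' processing notes list TopHat2, Bowtie2, cutadapt 1.2.1 and CASAVA with GRCm38 as the genome; how reads were counted, with what strand rule and on which annotation, is not given in the sources used here. From 2160 to 2359 genes per library had a count of 2 and 365 to 492 a count of 1, so each read pair may have been counted as 2. The filter was filterByExpr with a minimum count of 10 and a minimum total of 15. Kept genes were scaled by TMM and tested with edgeR 4.0.16 in R 4.3.3 (quasi-likelihood test with robust dispersions, 2-sided; p-values adjusted over all tested genes by Benjamini-Hochberg; threshold 0.05), with a biological coefficient of variation of 7.69%. Standard errors were taken as |log2 fold change| over the root of F. RPKM was computed from CPM and the deposited exon length. The pipeline was tested on simulated counts. Alternatives used limma 3.58.1, DESeq2 1.42.0, other scalings and filters, halved counts, a replicate block, libraries left out and summed members. The heavy chains and all lists were chosen with earlier results of these data known. Values are given for all 10 heavy chains, for the lists as counts with a fixed set of named genes, and for the 5 genes with the most similar profile; other genes are named where an exception or an overlap required it, after their values were seen. Intervals of counting error are not given, and the depth per library limits chiefly H2-T24, H2-T10 and H2-Q6. Replicate numbers did not pair the libraries. Of the regulators of class I transcription, 1 is not reported here.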

Additional observations from a re-analysis of the deposited data

How the results depend on the processing

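All 10 heavy chains remained lower, past the threshold, in the 15 of 17 alternatives that tested every member on its own. The other 2 alternatives summed members, and each sum was lower as well. With each sum counted for its members, 170 of 170 values were kept, but a summed member was not tested alone there. H2-Q7 came closest to the threshold, with an adjusted p of 0.00917 without vector replicate 1. The difference between the medians of classical and non-classical genes was 0.66 and ran from 0.60 without ZNF593-AS replicate 1 to 0.78 with ZNF593-AS replicate 1 alone against vector. The count of genes called over the whole table, 1383, was 2095 with library totals, which moved the median log2 fold change of all genes by 0.0908, and 675 with ZNF593-AS replicate 1 alone, where fewer libraries were compared and the lone library is assumed to vary like the vector group. It was 965 to 1356 when 1 library was left out. With ZNF593-AS replicate 1 alone 630 genes were lower and 45 higher, and with no filter on low counts 1111 were lower and 561 higher. The replicate block gave 1331 genes and all 10 heavy chains; deviations of libraries with the same number correlated at -0.07, -0.02 and 0.05, so the numbers were not treated as pairs, and not every library correlated best with its own number. Under the block Rfx5 had an adjusted p of 0.0525. The sum of all 10 members, an alternative chosen after seeing the data, had a log2 fold change of -1.40. Low counts of H2-T24, H2-T10 and H2-Q6 limit their precision.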

Other observations

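Most other tested class I genes between H2-K1 and H2-M3 moved with the 10. Of 12 further listed class I-fold genes of the H2 region in the table, 5 were tested, and H2-Q1, H2-Q2, H2-Q5 and H2-Q10 were lower. Tested class I-named genes of this stretch outside the list were H2-Q3, H2-T-ps and H2-M10.4. H2-Q3 (-1.58 ± 0.14) and H2-T-ps (-1.07 ± 0.22) were lower, and H2-M10.4 (0.60 ± 0.265) had no call. H2-Q1 was at 96.8 ± 12.4 CPM with ZNF593-AS and 220 ± 18.3 CPM with vector (SD, n = 3 each, log2 fold change -1.18 ± 0.09). H2-M10.1, a gene of the family known from vomeronasal neurons, was higher, at 31.7, 23.5 and 28.7 CPM with ZNF593-AS and 23.1, 21.6 and 21.9 CPM with vector (0.33 ± 0.09, edgeR adjusted p = 0.0375). Leaving out any 1 vector library, or ZNF593-AS replicate 1 or 3, or using limma-voom ended that call. Leaving out vector replicate 1 or ZNF593-AS replicate 3, or keeping ZNF593-AS replicate 1 alone, ended the call of H2-Q10.

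Class I-like genes outside the complex mostly did not pass: of 7 tested, Mill2 alone was lower (-1.47 ± 0.25), and Fcgrt, the neonatal Fc receptor, Hfe, of iron regulation, and Mr1, which presents vitamin metabolites, had log2 fold changes of 0.00, 0.03 and -0.09. Fcgrt, Hfe and Mr1 products also pair with beta-2 microglobulin. Of 4 tested NKG2D ligand genes, which flag stressed cells to natural killer cells, edgeR called 0, with log2 fold changes of 0.10 to 0.25; with library totals 1 was higher. Genes of the class II pathway were near absent, with 10 of 11 under 1 CPM. Of the 4 tested, H2-Ab1, H2-Eb1 and H2-DMa, which lie in the complex, had no call. Cd74, the class II invariant chain, does not lie between H2-K1 and H2-M3. It was lower, at 4.998 ± 0.493 CPM with ZNF593-AS and 7.60 ± 1.34 CPM with vector (-0.60 ± 0.13). Leaving out vector replicate 1, or keeping ZNF593-AS replicate 1 alone, ended the call of Cd74. Among 17 tested genes listed for the region with other roles, Daxx (-2.01 ± 0.07), Trim26 (-1.41 ± 0.12) and Gnl1 (-0.26 ± 0.06) were lower. Flot1 (0.26 ± 0.07) was higher. Like Cd74, Daxx does not lie between H2-K1 and H2-M3. Gnl1 lost its call with library totals, with ZNF593-AS replicate 1 alone, and on leaving out vector replicate 1, ZNF593-AS replicate 1 or ZNF593-AS replicate 2. Flot1 lost its call with ZNF593-AS replicate 1 alone, and on leaving out any 1 vector library, ZNF593-AS replicate 2 or ZNF593-AS replicate 3.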
